A study of Mus musculus with 4 samples.

Results

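The regions described here are chromosome 5, the part of chromosome 2 below 156800000, and the parts of chromosome 11 below 44400000 and above 94400000, in positions of mm9. Together they held 26197 of the 170305 probes on the array, or 16.2% of the 161460 autosomal probes. They were chosen on their log2 ratios in these arrays, as a candidate for the unaltered level, so their level is given as a description, with no test. Chromosome 2 gave 11090 probes, chromosome 5 gave 10174, and the start and the end of chromosome 11 gave 2533 and 2400. Of the 26197 probes, 6 lacked a value on at least 1 array.

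The DNA came from liver tumours of 4 mice without Fah and Trp53 (FAH-/-, Trp53-/-), named 239, 240, 244 and 252. All 4 are labelled male. For 6 months they had taken NTBC at 2.5% of the usual dose, which is 7.5 mg/L in the drinking water. Fah is the gene of the enzyme that completes the breakdown of tyrosine, NTBC stops that pathway at an earlier step, and Trp53 is the gene of p53, a tumour suppressor. The control was liver DNA pooled from 3 male littermates with both genes intact (FAH+/+, Trp53+/+), and the same pool was hybridised on every array. The pool counts as 1 control sample, the spread among control livers was not measured, and every value below shares it. The labels do not give the share of tumour cells in the tissue.

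Array comparative genomic hybridisation compares tumour and control DNA, labelled with different dyes, on probes spread over the genome. The ratio reads copy number only relative to the rest of the same DNA, so a zero has to be chosen. The usual zero is the median of the array, which is the unaltered level only when most of the genome is unaltered. A long stretch without copy number changes can serve in its place, as a level against which gains and losses are read. The number of arrays, 4, limits the precision of every mean below.

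The sequences of 4 probes show what was measured at the level of these regions. Each is the 60-base probe of its region whose log2 ratio was nearest to the level of all regions together, over the 4 tumours. They are written 5′ to 3′ as the array's files give them, in lower case throughout, with positions in mm9; the files do not state the strand.
Chromosome 2, annotated to Ano3, chr2:110712560-110712619: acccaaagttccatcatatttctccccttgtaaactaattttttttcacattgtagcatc
Chromosome 5, with no gene named in the files, chr5:56004241-56004300: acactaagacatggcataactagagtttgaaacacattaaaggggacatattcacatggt
Chromosome 11 start, annotated to Vwc2, chr11:11030493-11030552: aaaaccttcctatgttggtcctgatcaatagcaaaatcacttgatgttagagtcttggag
Chromosome 11 end, with no gene named in the files, chr11:113961131-113961190: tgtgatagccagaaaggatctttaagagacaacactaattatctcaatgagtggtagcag

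The Ano3 probe had log2 ratios of 0.019, 0.069, 0.12 and 0.014 in tumours 239, 240, 244 and 252, with the autosomal median of each array at 0. The chromosome 5 probe gave 0.029, 0.044, 0.11 and 0.0015 in the same order. Both were highest in tumour 244 and lowest in tumour 252. The Vwc2 probe gave 0.023, 0.057, 0.14 and 0.061, and the probe at the end of chromosome 11 gave 0.0085, 0.047, 0.12 and 0.031. On all 4 probes tumour 244 had the highest value.

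On the arrays as a whole, the software marked 98.8% to 99.9% of the spots as well above background, depending on array and colour. The SD between neighbouring probes was 0.25, 0.31, 0.33 and 0.35 in tumours 239, 240, 244 and 252. The sex chromosomes of the tumour labelled 252 went against its male label, with a median log2 ratio of 0.73 on X and -2.43 on Y. In tumour 239 the X and Y medians were -0.088 and -0.31, in tumour 240 -0.11 and -0.14, and in tumour 244 -0.30 and -1.20. The Y value rests on 122 probes. Results are therefore given per tumour wherever they turn on it.

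The regions together lay close to the autosomal median in 3 tumours and above it in tumour 244. Their median log2 ratio was 0.025 in tumour 239, 0.051 in tumour 240, 0.10 in tumour 244 and 0.028 in tumour 252. The mean over probes was 0.0028, 0.041, 0.092 and 0.022, or 0.039 ± 0.038 (SD, n = 4), and 0.045 on average without the tumour labelled 252. Windows of 5 Mb inside the regions, 79 in all, had SDs of 0.053, 0.067, 0.058 and 0.061, so a shift of the size seen in tumour 244 was larger than the spread of its windows and the shifts of the other tumours were smaller. A single-copy gain in every cell of a diploid sample would give 0.58 and a single-copy loss -1. All of these levels were small beside both. A change in only part of the cells would give less, and the share of tumour cells is not known. The size of these levels alone therefore does not tell whether copy number was altered.

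The regions differed among themselves. The part of chromosome 2 had medians of 0.032, 0.096, 0.11 and 0.019 in tumours 239, 240, 244 and 252. Chromosome 5 had 0.011, 0.012, 0.10 and 0.033. The start of chromosome 11 was the lowest of the 4 regions in every tumour, at 0.0012, 0.010, 0.045 and -0.0020. The end of chromosome 11 lay at 0.068, 0.066, 0.11 and 0.081, the highest of the 4 regions in tumours 239, 244 and 252. In tumour 240 chromosome 2 was the highest. These differences were mostly within the spread of the 5 Mb windows, which was 0.020 to 0.079 in SD across regions and tumours. That spread runs along a region and is not the error of its median.

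**Figure D1:**
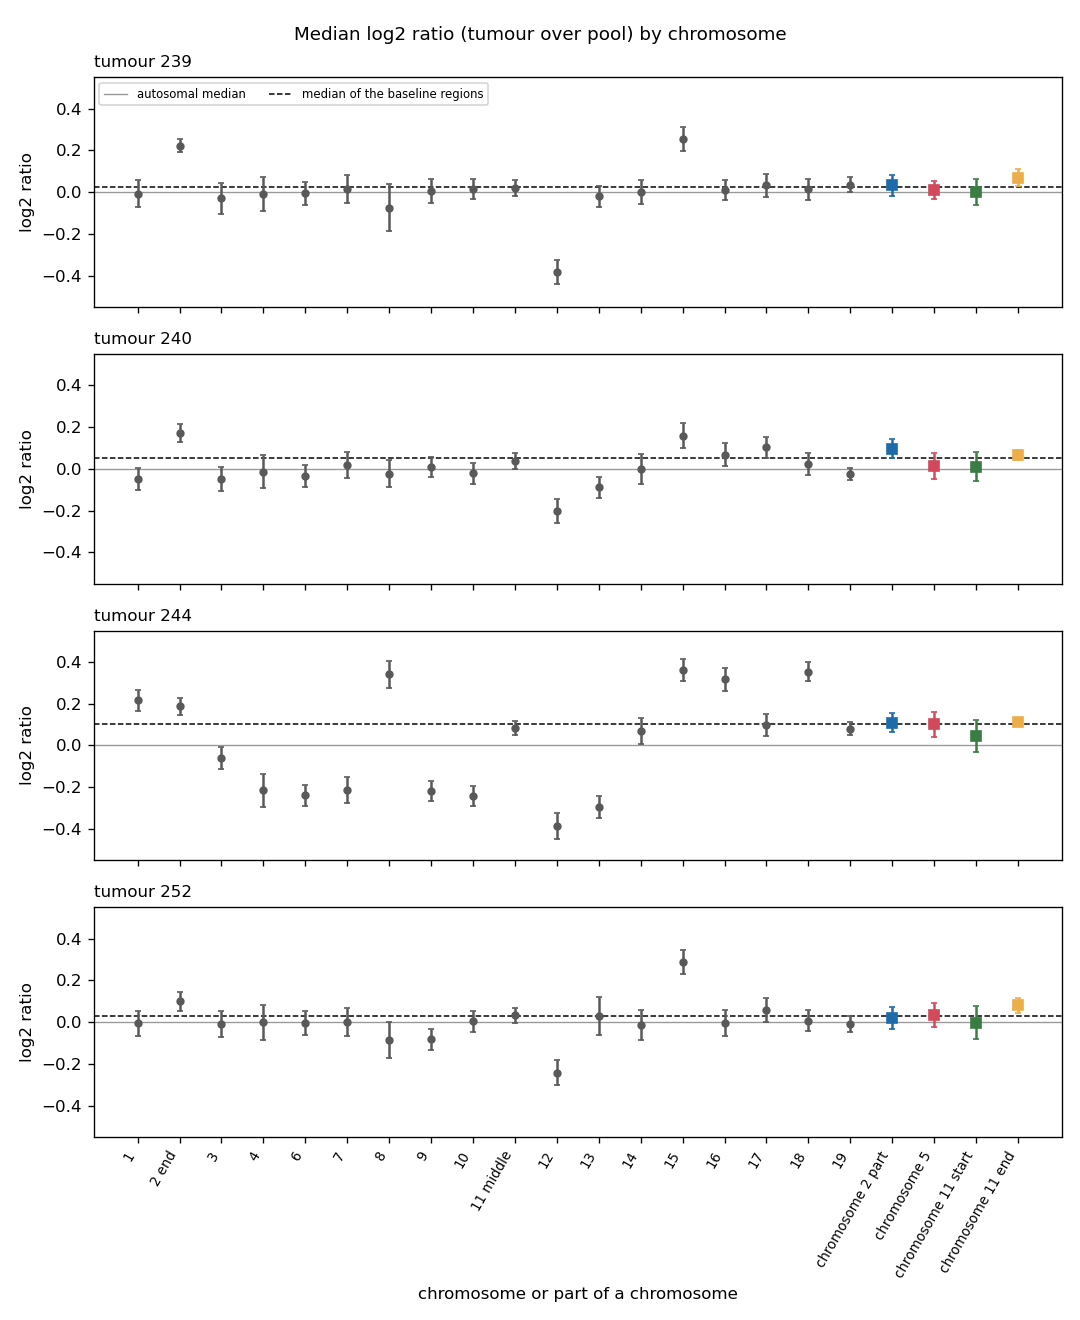
Median log2 ratio of tumour over pool (vertical axis) for each other chromosome or part of one (grey circles) and for the 4 regions (coloured squares), with 1 panel per tumour and bars of 1 SD of 5 Mb windows. The dashed line, the median of the regions, is at 0.025, 0.051 and 0.028 in tumours 239, 240 and 252, though the chromosome 2 part of tumour 240 lies at 0.096, and in tumour 244 it is at 0.10, with the start of chromosome 11 lower, at 0.045.

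Ranked among the 16 autosomes that do not contribute to the regions, the combined regions stood above 13 and below 3 in tumours 239, 240 and 252. In tumour 244 they stood above 11 and below 5. The start of chromosome 11 was nearer to the middle of the order, above 8 of the 16 in tumours 239 and 244, above 11 in tumour 240 and above 9 in tumour 252. Many neighbours in this order differed by less than the SD of their windows. In tumour 239, for example, chromosome 5 at 0.011 and chromosomes 7 and 18, both at 0.013, differed by less than it. That SD is the spread along a chromosome and not the error of its median, and the order of such neighbours was not tested.

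Which level was most frequent in each tumour was read in 2 ways. The peak of the distribution of single autosomal probes lay at 0.024, -0.0075, 0.0065 and -0.0075 in tumours 239, 240, 244 and 252. The mean of the regions differed from that peak by -0.021, 0.049, 0.085 and 0.030. With normexp background correction these differences were -0.17, -0.10, 0.032 and -0.097, which turns the direction in tumours 240 and 252. The peak over medians of 1 Mb bins, a reading added after the data were seen, lay at 0.0075, -0.0075, 0.10 and -0.0045. The median of the regions differed from it by 0.017, 0.059, -0.0034 and 0.032. In tumour 244 the answer thus turned on the smoothing: single probes put the peak near the autosomal median, and bins put it at the level of the regions. Both distributions include the probes of the regions themselves, and neither peak was read without them. A match of a peak to the regions is therefore not independent of the regions.

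The 2397 autosomal bins include those of the regions themselves. Within 0.1 of the regions' median lay 69.9%, 59.8%, 29.6% and 61.4% of them in tumours 239, 240, 244 and 252. The bins 0.1 or more below the regions made up 23.4%, 34.5%, 48.1% and 28.8%. Those 0.1 or more above made up 6.7%, 5.8%, 22.3% and 9.8%. In tumour 244 the level of the regions was therefore held by fewer than 1 bin in 3, with more bins below than above it. Within 0.1 of the autosomal median lay 71.2%, 67.1%, 22.7% and 63.6% of the bins in tumours 239, 240, 244 and 252. In tumour 244 fewer bins thus lay near the autosomal median than near the regions, and in the other tumours more.

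**Figure D2:**
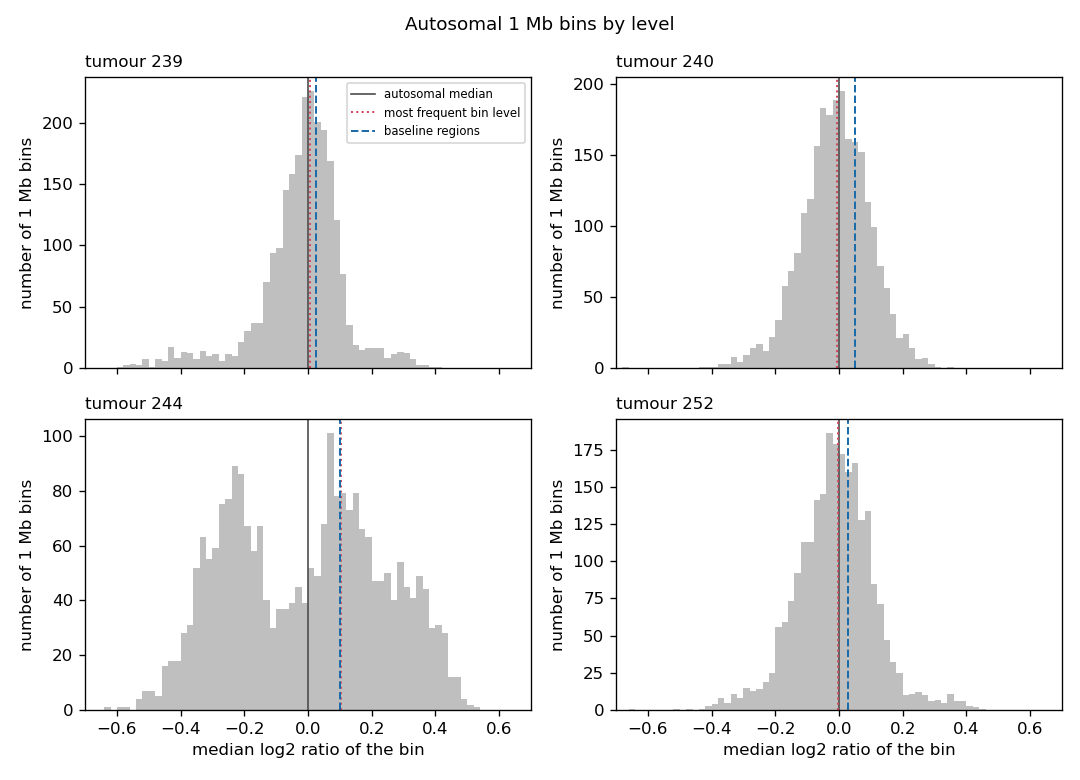
Number of autosomal 1 Mb bins (vertical axis) by median log2 ratio (horizontal axis), with 1 panel per tumour and lines at the autosomal median, at the most frequent bin level and at the median of the regions. Tumours 239, 240 and 252 have a single main peak near 0, and tumour 244 has several, of which the highest, at 0.10, coincides with the regions. The bins counted include those of the regions themselves.

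With the zero set on the regions, chromosomes that lay 0.2 or more away were counted over 18 units, namely the 16 other autosomes and the remaining parts of chromosomes 2 and 11. Chromosome 12 was lower than the regions in all 4 tumours, by -0.41 in tumour 239, -0.25 in tumour 240, -0.49 in tumour 244 and -0.27 in tumour 252. Chromosome 15, which carries the Myc oncogene, was higher by 0.23 in tumour 239, 0.11 in tumour 240, 0.26 in tumour 244 and 0.26 in tumour 252, so tumour 240 stayed under 0.2. In tumours 240 and 252 no other unit passed. In tumour 239 the end of chromosome 2 stood 0.20 above the regions, just under the limit when not rounded, although it was over the limit with the autosomal median at 0.

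In tumour 244 the regions had 4 chromosomes above them (8, 15, 16 and 18) and 7 below (4, 6, 7, 9, 10, 12 and 13). With the autosomal median at 0 the counts were 5 and 7, the difference being chromosome 1, which lay at 0.22 from the autosomal median and at 0.12 from the regions. At a distance of 0.3 the choice of zero mattered more. The regions as zero gave 0 higher and 7 lower chromosomes, and the autosomal median gave 4 higher and 1 lower. Over the 4 tumours, 16 of 72 pairs of unit and tumour lay 0.2 or more from the regions, 6 higher and 10 lower, and 47 lay within 0.1. Without tumour 244 the count of 16 was 5.

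Chromosomes 14, 17 and 19 shared the level of the regions in tumour 244, at -0.033, -0.0028 and -0.021 from it. Chromosome 3 lay -0.16 below. To take out what the arrays share, the mean of the other 3 tumours was subtracted from tumour 244, probe by probe. Leaving aside chromosomes 12 and 15, the remaining 17 autosomes were then split into 3 groups at their 2 widest gaps, after the values were seen. The number of groups and the gaps that bound them were thus set by the way of splitting. Chromosomes 4, 6, 7, 9, 10 and 13 averaged -0.23 ± 0.027 (SD over 6 chromosomes). Chromosomes 2, 3, 5, 11, 14, 17 and 19 averaged 0.046 ± 0.039 (SD over 7 chromosomes). Chromosomes 1, 8, 16 and 18 averaged 0.31 ± 0.070 (SD over 4 chromosomes). Chromosomes 2, 5 and 11, taken whole here, were in the middle group. It was bounded by the gaps of 0.17 and 0.16, the next widest gap being 0.068. Chromosomes 12 and 15 lay inside those gaps, at -0.11 and 0.13. The separation of the groups therefore depends on leaving them aside.

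**Figure D3:**
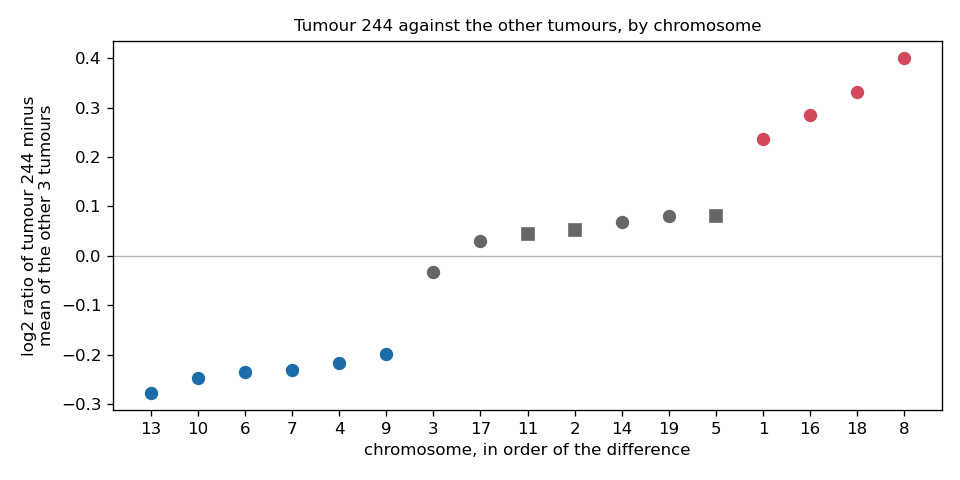
Log2 ratio of tumour 244 minus the mean of the other 3 tumours (vertical axis) for 17 autosomes in order of that difference, with squares for chromosomes 2, 5 and 11, and blue, grey and red for the low, middle and high group. The squares, which stand for whole chromosomes, lie in the middle group, between gaps of 0.17 and 0.16. Chromosomes 12 and 15, which are not drawn, would lie inside those gaps.

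The spacing of the 3 groups did not single out a zero. On the linear scale the steps were 0.18 from low to middle and 0.21 from middle to high, and without subtracting the other tumours they were 0.20 and 0.19. If the middle group is taken as the unaltered diploid level, the low group would equal the loss of a single copy in 35.4% of cells and the high group the gain of a single copy in 40.7%. If the low group is taken as unaltered, the middle group would equal a single-copy gain in 43.0% of cells and the high group a gain of 2 copies in 46.3%. If the high group is taken as unaltered, the middle group would equal a single-copy loss in 33.8% of cells and the low group a loss of 2 copies in 31.6%. These shares are arithmetic on the levels after the other tumours were subtracted. They carry any change in those tumours, and shares from the plain levels were not computed. The ploidy and the share of tumour cells were not measured, and the 3 readings cannot be told apart from these ratios alone.

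The same arithmetic for chromosomes 12 and 15 shifted with the zero. In tumour 244 the loss of a single copy of chromosome 12 would need 46.8% of cells with the autosomal median as zero and 57.1% with the regions as zero. The gain of a single copy of chromosome 15 would need 56.9% and 39.5%. In the tumour labelled 252 the shares with the regions as zero were 34.0% for chromosome 12 and 39.5% for chromosome 15. In tumour 239 they were 49.3% and 34.6%, and in tumour 240 they were 32.3% and 15.5%. The change of zero moved the shares most in tumour 244, where the regions stand farthest from the autosomal median.

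In tumour 240 the part of chromosome 2 and chromosome 5 did not share a level. The median of chromosome 2 was 0.084 above that of chromosome 5 in tumour 240, against 0.021 in tumour 239, 0.0084 in tumour 244 and -0.015 in tumour 252. Minus the mean of the other tumours, tumour 240 stood at 0.042 on chromosome 2 (SD of windows 0.012, 32 windows) and at -0.036 on chromosome 5 (SD of windows 0.020, 31 windows). The windows did not overlap: they ran from 0.018 to 0.065 on chromosome 2 and from -0.068 to -0.0018 on chromosome 5. In tumour 240 the regions are therefore not 1 level, and a zero set on chromosome 5 alone would lie lower than one set on chromosome 2.

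**Figure D4:**
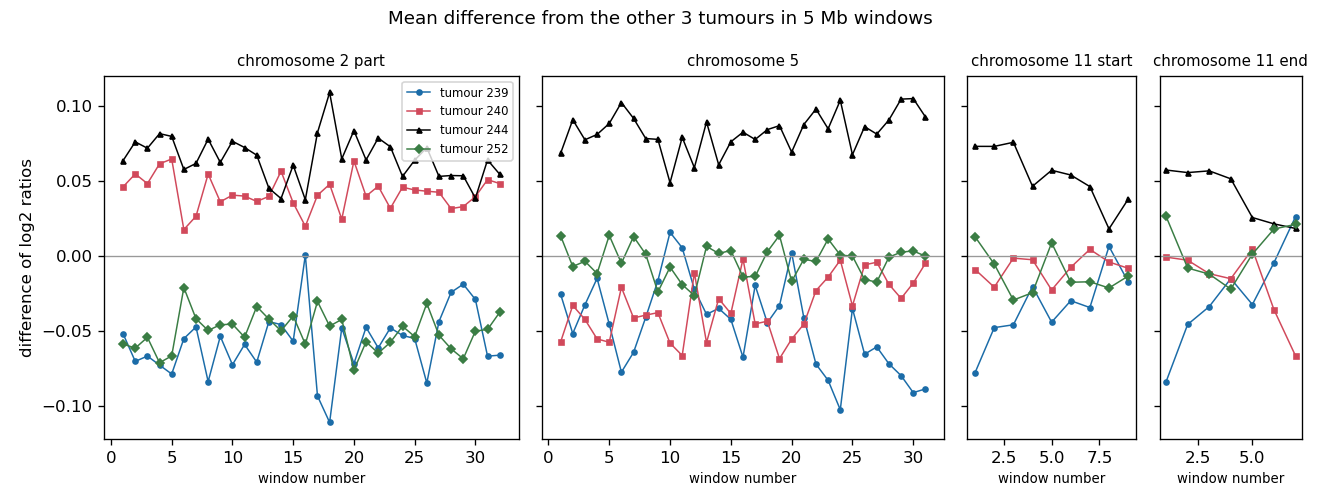
Difference of each tumour's log2 ratio from the mean of the other 3 tumours (vertical axis) in 5 Mb windows along each of the 4 regions (horizontal axis, window number), with 1 line per tumour. Tumour 244 lies above the others in most windows, and tumour 240 is above 0 in every window of the chromosome 2 part and below 0 in every window of chromosome 5.

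Much of the variation along the regions, except at the end of chromosome 11, recurred on every array. Windows of 5 Mb had SDs of 0.020 to 0.079 as plain log2 ratios, and of 0.0088 to 0.035 after the mean of the other tumours was taken off. The widest relative fall was at the start of chromosome 11 in tumour 240, from 0.071 to 0.0088. At the end of chromosome 11 the SD fell little or not at all in 3 tumours, from 0.041 to 0.035 in tumour 239, from 0.0249 to 0.0251 in tumour 240 and from 0.0197 to 0.0181 in tumour 244. Variation that all 4 arrays share can come from the pool, the probes or changes common to the tumours, and these cannot be told apart.

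**Figure D5:**
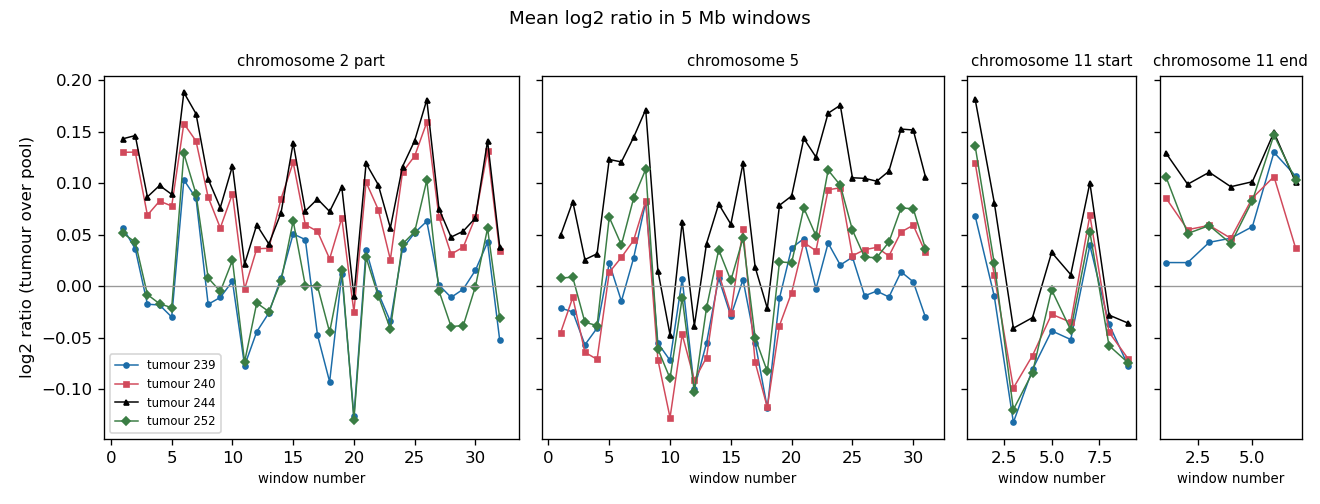
Mean log2 ratio of tumour over pool (vertical axis) in 5 Mb windows along each of the 4 regions (horizontal axis, window number), with 1 line per tumour. The 4 lines mostly rise and fall together, less so at the end of chromosome 11, and tumour 244 is the highest in most windows.

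The signals of the single colours were read too. The pool, minus its array's autosomal median, stood at 0.0061, 0.0027, 0.0057 and 0.00024 over the regions on the arrays of tumours 239, 240, 244 and 252, or 0.0037 ± 0.0028 (SD, n = 4 arrays of the same DNA). The tumour signal stood at 0.038, 0.067, 0.11 and 0.032. The difference between tumour 244 and the others was thus in the tumour colour, and the pool moved by 0.0059 at most between arrays. The end of chromosome 11 was dimmer than the rest in the pool on every array, from -0.080 to -0.11, and the start of chromosome 11 was brighter, from 0.041 to 0.058. In the tumour colour the end stood at 0.011, 0.038, 0.067 and 0.022, and the start at 0.035, 0.030, 0.079 and 0.026. In tumours 239, 244 and 252 the end had the highest ratio of the 4 regions. Its tumour signal there was the lowest or level with the lowest.

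At the cuts that bound the regions, values changed most at the cut on chromosome 2 in tumour 239. The 5 Mb inside that cut had medians of 0.040, 0.15, 0.15 and 0.079 in tumours 239, 240, 244 and 252, and the 5 Mb outside had 0.22, 0.12, 0.12 and 0.057. Inside the lower cut on chromosome 11 the medians were -0.026, -0.061, -0.038 and -0.079, and outside they were -0.017, 0.0013, 0.038 and -0.029. Inside the upper cut they were 0.026, 0.039, 0.083 and 0.037, and outside 0.038, 0.030, 0.033 and 0.011. The middle of chromosome 11, which the rule leaves out, had medians of 0.021, 0.035, 0.082 and 0.032, close to the medians of the regions in every tumour.

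Single probes spread far more than the level of the regions. In all 4 tumours at once, 72.5% of the 26197 probes lay within 0.5 of the autosomal median, 150 lay at -1 or lower and 18 at 1 or higher. In a single tumour between 83.0% and 91.8% lay within 0.5. The GC content of the probes averaged 36.8%, as elsewhere on the autosomes. Across 371 bins of 1 Mb, the mean GC of a bin's probes had a Pearson r of 0.29 to 0.39 with the bin's level in the 4 tumours. Across the 26197 single probes r was 0.026, -0.043, -0.064 and -0.056 in tumours 239, 240, 244 and 252. These are descriptions across bins and probes, which share the pool and the array and are not independent. The part of GC in the levels was not tested.

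Bins of 1 Mb were fitted with limma across the whole array, with the autosomal median at 0 and Benjamini-Hochberg adjustment at 0.05. Of 2541 bins, 117 were called higher and 216 lower, which is 4.6% and 8.5%, together 13.1%. Of the 370 bins in the regions, 15 were called higher and 12 lower. Since the regions were chosen on this contrast, nothing is read from that count. Leaving out a tumour changed the calls over the whole array from 333 to 0 without tumour 239, 96 without tumour 240, 901 without tumour 244 and 157 without the tumour labelled 252. In the regions, 113 bins were called without tumour 244, and 0 when tumour 239, tumour 240 or the tumour labelled 252 was left out.

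With the regions at 0 the same fit called 92 bins higher and 295 lower, which is 3.62% and 11.6% of the 2541 bins. The regions lie above the autosomal median, so this zero lowers every bin of an array by the same amount, and more lower calls follow from its construction. Leaving out tumours 239, 240 or 252 in turn left 0 calls in each case, and leaving out tumour 244 gave 931.

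Bins were also formed from the regions' own probes alone, which keeps a bin that a cut divides and whose centre lies outside. Those with at least 20 probes ran from -0.22 to 0.21 in their mean over tumours, and 72.0% of the 371 lay within 0.1 of the autosomal median. The lowest were all at the start of chromosome 11. The bin at chr11:37000001-38000000 had means of -0.17, -0.21, -0.23 and -0.29 in tumours 239, 240, 244 and 252. The bin at chr11:13000001-14000000 had -0.29, -0.20, -0.16 and -0.21, and no gene with 3 probes lay in it. The bin at chr11:18000001-19000000 had -0.20, -0.24, -0.19 and -0.20. It holds Meis1, a homeobox transcription factor, whose own 15 probes gave -0.017, -0.026, 0.014 and 0.0019. The low level of that bin was thus not in Meis1.

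The highest bins were spread over the 3 chromosomes. The bin at chr2:129000001-130000000 had means of 0.12, 0.25, 0.27 and 0.20 and holds Sirpa, a receptor on macrophages that binds CD47, and Tgm3, a transglutaminase of skin. Sirpa had 0.16, 0.43, 0.35 and 0.19 on 4 probes. The bin at chr5:112000001-113000000 had 0.097, 0.19, 0.25 and 0.26. It holds Sez6l, Hps4 and Tpst2. The bin at chr11:118000001-119000000 had 0.17, 0.17, 0.23 and 0.22. In it Rbfox3, a splicing factor of neurons, stood at 0.25 ± 0.028 on 44 probes and Cyth1 at 0.34 ± 0.063 on 9 probes (SD, n = 4). Timp2, an inhibitor of metalloproteinases in the same bin, went the other way, at -0.24 ± 0.10 on 4 probes (SD, n = 4).

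Runs of 10 neighbouring probes with a mean of -0.5 or lower in all 4 tumours were found at 5 places in the regions, and runs of 0.5 or higher at 0. That is 1.91 low runs per 10000 probes, against 4.95 in the other autosomes, which had 67 low and 6 high runs. The rule favoured regions without strong shifts, so the difference is a description. In each run 2 to 6 probes lay at -0.5 or lower in all 4 tumours, so a run can rest on a few very low probes. The run around 4930555B11Rik, with a mean of -0.63 over 11 probes, rests mostly on 1 probe, which averaged -5.41 over the tumours. The lowest probe of each run is shown.
Chromosome 11, in a transcript the files name ENSMUST00000145182, chr11:18535077-18535136: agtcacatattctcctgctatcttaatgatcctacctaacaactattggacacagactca
Chromosome 2, annotated to Kcnj3, chr2:55411648-55411707: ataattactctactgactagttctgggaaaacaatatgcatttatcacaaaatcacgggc
Chromosome 2, annotated to 4930555B11Rik, chr2:57036487-57036546: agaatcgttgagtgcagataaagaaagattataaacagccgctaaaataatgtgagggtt
Chromosome 2, annotated to Tlk1, chr2:70597751-70597810: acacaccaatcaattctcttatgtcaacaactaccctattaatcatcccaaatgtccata
Chromosome 2, annotated to Chmp4b, chr2:154493449-154493508: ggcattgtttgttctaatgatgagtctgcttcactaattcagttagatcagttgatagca

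The probe in 4930555B11Rik was the lowest, at -5.33, -5.52, -5.20 and -5.58 in tumours 239, 240, 244 and 252. The Tlk1 probe gave -2.09, -2.08, -2.07 and -1.85, and the Chmp4b probe gave -2.04, -2.46, -2.15 and -2.29. On each of the 3, the tumours were low together. The Kcnj3 probe gave -1.27, -1.36, -1.53 and -1.50, and the chromosome 11 probe gave -2.24, -2.90, -2.44 and -2.24. Each value is against the same pool, so a loss shared by the tumours and a difference that lies in the pool cannot be told apart.

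Over whole genes the picture was narrower. Tlk1, a kinase of chromatin assembly, had 10 probes at -0.70, -0.62, -0.58 and -0.61. The 1 Mb around it, on 80 probes, lay at 0.042, 0.17, 0.17 and 0.079, so the drop was narrower than that. Chmp4b, a subunit of the membrane-cutting ESCRT-III complex, had a mean over 3 probes of -0.65, -0.85, -0.56 and -0.75. That low mean comes from 1 probe, the Chmp4b probe shown above, at -2.04, -2.46, -2.15 and -2.29. The neighbouring gene Pxmp4, a peroxisomal membrane protein, had 2 probes at -0.69, -0.96, -0.78 and -0.99. The surroundings of Chmp4b and Pxmp4 were at 0.037 ± 0.069 and 0.046 ± 0.065 (SD, n = 4). Zfp341 in the same run had -0.53 ± 0.15, whereas the single probe of E2f1, a transcription factor of the cell cycle, had -0.12, -0.12, 0.020 and -0.20. Kcnj3, a potassium channel subunit, had 17 probes at -0.25, -0.15, -0.24 and -0.22. Nr4a2, a nuclear receptor inside the run around 4930555B11Rik, stood at 0.25, 0.19, 0.26 and 0.067 on 2 probes.

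Genes of 5 lists were read at their own probes and in the 1 Mb around them. Of 69 list genes, 56 lay in the regions, 10 lay outside and 3 had no probe, and 36 of the 56 had at least 3 probes. In the limma fit over all genes, 2 of the 36 were called higher and 4 lower, where 32.8% of all genes tested and 23.6% of those with at least 3 probes were called, and the median of the 36 means was 0.014. The median over all 8736 such genes was 0.022. The rule used this contrast, so nothing is read from the count. The surroundings of the 36 genes ran from -0.032 to 0.20, except that Lrp1b is too long to have any.

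Among hepatocyte and tyrosine pathway genes, 4 of 12 in the regions had at least 3 probes, and 1 of these was called, lower. Cyp3a13, a cytochrome P450 of drug metabolism, had -0.21, -0.29, -0.18 and -0.39 on 3 probes, in surroundings at -0.016 ± 0.028 (SD, n = 4). The call was lost without tumour 240 and without the tumour labelled 252. Por, the reductase that feeds electrons to cytochromes P450, had 0.14, -0.067, -0.052 and -0.0096. Aldh2, an aldehyde dehydrogenase, had 0.21, 0.043, 0.19 and 0.051. Hpd, which encodes the enzyme that NTBC blocks, had fewer than 3 probes, and the 1 Mb around it lay at 0.14, 0.0016, 0.086 and 0.045. Tumour 239 was the highest there.

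Among growth signalling genes and oncogenes, 12 of 15 in the regions had at least 3 probes, with 0 called higher and 2 lower. Hgf, the ligand of the Met receptor, had -0.086, -0.26, -0.17 and -0.26 on 7 probes, and the call was lost when any of the 4 tumours was left out. Rel, a subunit of NF-kappa-B, had -0.17, -0.37, -0.28 and -0.28 on 3 probes and lost its call without tumour 240. With normexp background correction neither was called, at -0.041 and -0.018. The receptor genes with at least 3 probes were not called in the same fit. Egfr had -0.065, -0.22, -0.15 and -0.18 on 17 probes, Kit had -0.048, -0.12, -0.045 and -0.058 on 8, Pdgfra had 0.021, 0.16, 0.28 and 0.24 on 6, and Kdr, a receptor of vascular growth factors, had -0.0033, -0.16, -0.049 and -0.094 on 5. Egfr was called lower with normexp, at -0.20, and with lowess on intensity, at -0.19, and Kdr turned to 0.11 and 0.010 without a call.

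The other members of that list with at least 3 probes were not called either. Erbb2, a receptor gene with 2 probes, was called higher, at 0.69, 0.62, 0.62 and 0.63 in tumours 239, 240, 244 and 252. The 1 Mb around it lay at 0.044 ± 0.022 (SD, n = 4). Erbb2 is named because its call was seen. Of all 56 list genes in the regions, whatever their number of probes, 7 were called higher, Erbb2 among them, and 7 lower. Over the whole array limma called 32.8% of all genes and 43.1% of those with 1 probe. The call of Erbb2 is therefore not read as a gain of the gene. Flt3, a receptor of blood progenitors, averaged 0.044 ± 0.11, and Mertk, a receptor for dying cells, averaged 0.031 ± 0.029 (SD, n = 4). Notch1 had 0.077 ± 0.024 and Abl1, a tyrosine kinase, had -0.047 ± 0.060. Cdk6, a kinase of entry into the cell cycle, had -0.063, -0.19, -0.078 and -0.069 on 13 probes. Stat3, a transcription factor of cytokine signalling at the end of chromosome 11, had 0.14, 0.12, 0.30 and 0.14 on 7 probes, with tumour 244 above the other tumours.

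Among tumour suppressors and chromatin genes, all 11 in the regions had at least 3 probes, with 1 called higher and 0 lower. Wt1, a zinc finger transcription factor, had 0.37, 0.45, 0.35 and 0.29 on 5 probes, in surroundings at 0.14 ± 0.069 (SD, n = 4). Lrp1b, a large receptor of the LDL receptor family, was the best covered gene, with 203 probes over chr2:40459693-42506541. It had -0.034, 0.012, 0.043 and -0.056, with tumour 244 highest and the tumour labelled 252 lowest. Kmt2c, a histone methyltransferase, had -0.10, -0.071, 0.049 and -0.052 on 25 probes. Ext2, an enzyme of heparan sulfate synthesis, had 0.092, 0.028, 0.13 and 0.12 on 13 probes.

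The repair and signalling genes of the list were not called in this fit. Brca1 and Brca2, both needed for repair by recombination, averaged -0.016 ± 0.068 and -0.032 ± 0.10 (SD, n = 4), and -0.0026 and -0.012 without the tumour labelled 252. Chek2, a checkpoint kinase that acts on p53, had -0.0067, 0.025, 0.086 and -0.10. With normexp Chek2 was called higher, at 0.32, and Brca2 lower, at -0.26. Tsc1, a brake on mTOR, averaged 0.075 ± 0.042, Axin2, a feedback inhibitor of Wnt signalling, 0.027 ± 0.10, and Spred1, an inhibitor of Ras signalling, -0.077 ± 0.036. Asxl1, a chromatin regulator, had 0.058, 0.25, 0.16 and 0.13 on 5 probes.

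Among cell cycle, mitosis and repair genes, 6 of 13 had at least 3 probes, with 0 called higher and 1 lower. Bub1 and Bub1b, both kinases of the spindle checkpoint, averaged -0.11 ± 0.042 and 0.081 ± 0.046, and the surroundings of both lay at 0.15 (SD 0.048 and 0.049, n = 4). Trp53bp1, which binds p53 and guides break repair, had -0.028, 0.24, 0.26 and 0.12 on 8 probes. The gene called lower was Xpo1, the exporter of proteins from the nucleus, with -0.27, -0.36, -0.18 and -0.41 on 4 probes. Its call was lost without tumour 240. Of the oxidative stress and mTOR genes, 3 of 5 had at least 3 probes and 1 was called higher, namely Rptor, the scaffold of mTOR complex 1. Rptor had 0.22, 0.12, 0.21 and 0.21 on 32 probes, in surroundings at 0.16 ± 0.038 (SD, n = 4), and lost its call when any of the 4 tumours was left out. With normexp background correction it stood at 0.014. Xpo1 and Rptor are named because they made up these counts and were chosen after their values were seen.

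The share of called genes moved with the number of probes. Among all genes with 1 probe limma called 43.1%, and among those with 10 or more it called 16.6%. In the regions the shares were 47.6% of 1179 and 13.6% of 425. A call on a gene with few probes in these regions is therefore read beside the 1 Mb around it.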

How the data were processed

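Genomic DNA was measured on 2-colour Agilent mouse CGH arrays, with the tumour in Cy5 and the pool in Cy3 on every array per the labels, so no dye swap was made. Per the submitters' processing notes, the scanner files come from Agilent Feature Extraction 12.0.0, whereas the file headers carry another version number of it. Per the file headers, each colour's processed intensity had its background subtracted and its dye normalised, and raw mean and background intensity were used only for normexp. The authors' value table holds log10 ratios, which equal those of the scanner files within 0.005, with column medians of 0.0023, 0.00233, 0.00131 and 0.000212, so it was not centred. The arrays share 1 slide and 1 scan, per the file headers, so neither could be tested as a batch.

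Of 180880 spots, 6575 controls and 95 to 120 outlier spots per array were dropped. Spots of a probe were averaged as log2 of tumour over pool and centred on the median over chromosomes 1 to 19, with no loess. The most frequent level was the peak of a Gaussian kernel density with a bandwidth of 0.05. Genes, and 1 Mb bins that held 5 or more probes, were fitted against 0 with limma 3.58.1 in R 4.3.3 (Benjamini-Hochberg at 0.05); limma and the peak were also tested on simulated data. Python 3.11.15, numpy 2.4.6, pandas 2.3.3 and matplotlib 3.10.9 did the rest. The files give 18700 gene names. In RefSeq's table for GRCm38.p6, used for names only, 15443 of them are current symbols and 703 are former ones. Probe sequences and mm9 positions are those of the scanner files.

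The regions, the gene lists and the tests were chosen with earlier results of these data known. Named were list genes in the regions with at least 3 probes, at most 30 in list order; up to 3 genes with at least 3 probes in each of the 3 highest and 3 lowest 1 Mb bins; and the genes of runs of 10 probes at or beyond 0.5 in size in all 4 tumours. Alternatives covered the zero, the background, lowess on intensity, probe filters, the ends and members of the regions, bin size, robust limma and leaving out each tumour. GC content was taken from the probe sequences, since no mm9 genome was used here. The values of 1 list gene are not reported here.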

Additional observations from a re-analysis of the deposited data

Results flagged for a closer look

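Among 91 sets of 4 tumour values read for the regions, their bins and their named genes, 10 had a tumour far from the other 3. Chance would mark about 1 in 20 of independent sets. Many of these sets share probes, so the share marked is not read against chance. Tumour 244 was the far one in 5 of the 10. Minus the mean of the other tumours, it stood at 0.080 on chromosome 5, against -0.034, -0.036 and -0.016, and at 0.035 on the end of chromosome 11, against -0.018, -0.016 and -0.014. Its tumour signal was 0.12 on chromosome 5, against 0.042, 0.034 and 0.046, and 0.079 at the start of chromosome 11, against 0.035, 0.030 and 0.026. Its level at Stat3 was 0.30, against 0.14, 0.12 and 0.14.

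Tumour 240 was the far one in 4. It stood at -0.57 in the run of low probes that starts at chr11:18032351, against -0.50, -0.50 and -0.49. It had -0.12 at Kit, against -0.048, -0.045 and -0.058. It had -0.19 at Cdk6, against -0.063, -0.078 and -0.069, and 0.12 at Rptor, against 0.22, 0.21 and 0.21. Tumour 239 was the far one at Timp2, with -0.091, against -0.28, -0.31 and -0.28.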

How the results depend on the processing

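The mean level of the regions over tumours was 0.0047 to 0.057 under every centring, background, filter, end and summary tried. It was lowest with normexp background correction, and 0.022 to 0.052 with a tumour left out. All of these lay less than 1 SD over tumours from 0.039. That SD, 0.038, is nearly as large as the level, so a level near 0 would also meet this limit. With normexp background correction tumours 239, 240 and 252 turned to -0.039, -0.0050 and -0.015, tumour 244 stood at 0.078, the regions minus the peak of single probes averaged -0.084 (-0.17, -0.10, 0.032 and -0.097), and tumour 244 minus the other tumours was 0.093. With the zero at the peak of 1 Mb bins, tumour 244 turned to -0.013. Of 72 unit and tumour pairs, 25 lay 0.1 or more and 8 lay 0.3 or more from the regions, and 5 to 15 lay 0.2 or more with a tumour left out. Bins of 5 Mb gave 52 limma calls with the autosomal median at 0 and 58 with the regions at 0, from fewer bins tested. With a tumour left out limma called 0 to 901 bins of 1 Mb with the autosomal median at 0, and 0 to 931 with the regions at 0. Where it called 0, 555 bins (autosomal median, without 239) and 635, 578 and 749 bins (regions at 0, without 239, 240 and 252) had an unadjusted p under 0.05. Of all genes, limma called 2313 when only genes with at least 3 probes were fitted, and 3128 to 5198 with a tumour left out, fewest without tumour 240. Over the single genes named, 458 of 531 values kept their direction and their side of the threshold, 45 lost a call and 7 gained one in the same direction, and 21 turned their sign, all of them in genes without a call in the fit reported. With normexp these were Brca1 (0.091), Chek2 (0.32, called), E2f1 (0.14), Ext2 (-0.0069), Flt3 (-0.078), Hps4 (-0.057), Kdr (0.11) and Spred1 (0.092). With lowess they were Brca1 (0.0077), Chek2 (0.11) and Kdr (0.010), and with only probes well above background Chek2 (0.0039). With a tumour left out, the sign turned in Axin2 (-0.015 to 0.066), BB557941 (-0.048 to 0.046), Brca1 (-0.036 to 0.0093), Brca2 (-0.070 to 0.0029), Chek2 (-0.029 to 0.035), Lrp1b (-0.026 to 0.0067) and Por (-0.043 to 0.025). Apart from the construction just named, the cause was not tested. No paired analysis was possible because all tumours form 1 group against 1 pool.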
